A study of Mus musculus with 8 samples.

Results

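The genes described here are the thrombospondin family with its member *Comp* (cartilage oligomeric matrix protein), 5 of the 54532 genes in the deposited table, found by their symbols. They were chosen with earlier results of these data in view, because the pentameric members *Thbs3*, *Thbs4* and *Comp* stood far apart between transplanted (*in vivo*) and cultured (*in vitro*) cells while the trimeric members *Thbs1* and *Thbs2* did not. How the members differed between the settings is therefore a description. The limits used for calls were applied to them there too, but no p-value is given and nothing is read from it. The change between the weeks within each setting was not itself the ground of that choice and was tested. The values of both weeks entered the choice, so the test is not independent of it.

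The cells were MICFs, cardiac fibroblasts isolated from infarcted hearts of adult mice and grown in culture. All of them received tetracycline-inducible lentiviruses for MGT (*Mef2c*, *Gata4* and *Tbx5* in one construct), *Myocd*, *Sall4* and eGFP, so no group lacks the reprogramming factors. The *in vivo* samples are eGFP+ cells sorted from the hearts of 8-week-old wild-type C57BL/6 males that had been injected with MICFs at coronary ligation, given doxycycline, and treated with tacrolimus, mycophenolate mofetil and methylprednisolone. The *in vitro* samples are eGFP+ cells from the same infected MICFs kept in culture with doxycycline. Each setting was sampled after 1 week (Day 7) and 2 weeks (Day 14), with 2 libraries in each of the 4 groups and 8 in all. A reprogramming medium described for cultured MICFs held SB431542, an inhibitor of the TGF-β type I receptor, and baricitinib, a JAK inhibitor, but whether the *in vitro* libraries came from that medium is not stated. The place and the culture conditions cannot be told apart. Whether the 2 libraries of a group came from separate animals or wells is not stated, and p-values then measure the spread between these libraries, which may be technical.

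Thrombospondins are secreted, calcium-binding matricellular glycoproteins that link collagens, proteases, growth factors and cell-surface receptors. *Thbs1* and *Thbs2* encode trimers with type 1 repeats. *Thbs1* protein can activate latent TGF-β and, like *Thbs2* protein, binds CD36 and CD47, whereas *Thbs3*, *Thbs4* and *Comp* encode pentamers without type 1 repeats. COMP is a matrix protein of cartilage and tendon that binds fibrillar collagens, and THBS4 is found in tendon, muscle and the injured heart, where it also acts inside the cell through the ER stress sensor ATF6.

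Each library held 12304242 to 14546904 fragments on genes, recovered from the deposited FPKM (fragments scaled to gene length and to library size). At this depth the trimeric members rested on 7662 fragments or more in every library, and *Thbs4* and *Comp* in culture on 0 to 27. Fibroblast markers were expressed in all libraries, and each of the 10 had more than 3 fragments in some library of each setting. Their summed FPKM was 10182 to 13265 *in vivo* and 2110 to 3218 *in vitro*. All 10 macrophage markers were also present, with summed FPKM of 1561 to 2400 *in vivo* and 4015 to 5146 *in vitro*. Summed endothelial markers were at 91.6 to 105 FPKM *in vivo* and 24.4 to 63.4 *in vitro*, and mural markers at 234 to 265 and 225 to 302. The 8 mesothelial markers summed to 18.5 to 37.6 FPKM *in vivo* and 259 to 586 *in vitro*, and the 10 cardiomyocyte markers to 16.5 to 48.9 and 166 to 1228. The 8 platelet markers summed to 53.9 to 86.9 FPKM *in vivo* and 68.1 to 91.4 *in vitro*, most of it from *Pf4*, while *Gp6* had at most 3 fragments in each library. The 5 transduced factors summed to 55.1 to 58.1 FPKM *in vivo* and 83.2 to 111 *in vitro*. The part of these mixtures in the thrombospondin levels was not tested, and in bulk samples fewer cells of a type and less RNA per cell cannot be told apart.

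On GRCm38, the mm10 assembly, *Thbs1* (ENSMUSG00000040152) lies on the plus strand at chr2:118111876-118127133 and *Thbs2* (ENSMUSG00000023885) on the minus strand at chr17:14665500-14694235. *Thbs3* (ENSMUSG00000028047) lies on the plus strand at chr3:89215180-89226837, *Thbs4* (ENSMUSG00000021702) on the minus strand at chr13:92751590-92794818, and *Comp* (ENSMUSG00000031849) on the plus strand at chr8:70373558-70382066. Their longest coding sequences in GENCODE vM21 were 1171 and 1172 codons, the stop codon left out, for *Thbs1* and *Thbs2*, and 956, 963 and 755 codons for *Thbs3*, *Thbs4* and *Comp*. No stretch of 31 bases was shared between the annotated transcripts of any members, so reads of that length could not be split between them. *Thbs3* overlaps *Mtx1* on the other strand over 318 of its 4823 exonic bases, and *Mtx1* had an FPKM of 4.35 to 6.28 in all libraries. The strand setting of the counting is not stated, so the 77 to 104 fragments of *Thbs3* in culture may include *Mtx1* reads and that level is uncertain. *Comp* ends next to *Crtc1* without overlap, and the antisense RNA *Gm29233* within *Thbs1* had 0 fragments in every library.

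The RefSeq promoter table for GRCm38.p6 held 3 of the 5 members, *Thbs2*, *Thbs3* and *Thbs4*, and not *Thbs1* or *Comp*. The 250 bases before each start are shown because these genes span the family's range, from a small to a very large difference between the settings. Capitals mark matches on either strand to the TATA box TATAAA, the GC box GGGCGG, the SMAD element CAGAC and the TEAD element GGAATG. AP-1 (TGANTCA), the GATA-factor element AGATAA and the SMAD palindrome GTCTAGAC were searched too and have no match in these windows. Matches to the CCAAT box, the E-box (CANNTG) and the SOX element (ACAAAG) are not capitalised.
Thbs2, chr17:14694263-14694512, minus strand: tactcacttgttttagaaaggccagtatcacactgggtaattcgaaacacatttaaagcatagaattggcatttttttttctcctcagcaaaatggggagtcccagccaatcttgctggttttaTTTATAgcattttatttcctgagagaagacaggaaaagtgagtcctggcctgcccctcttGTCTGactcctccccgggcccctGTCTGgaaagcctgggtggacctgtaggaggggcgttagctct
Thbs3, chr3:89214930-89215179, plus strand: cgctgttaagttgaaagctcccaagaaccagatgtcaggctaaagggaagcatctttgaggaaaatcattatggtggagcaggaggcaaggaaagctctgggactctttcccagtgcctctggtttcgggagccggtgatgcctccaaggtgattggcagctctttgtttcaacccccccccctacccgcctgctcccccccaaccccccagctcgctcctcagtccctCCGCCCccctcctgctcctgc
Thbs4, chr13:92794819-92795068, minus strand: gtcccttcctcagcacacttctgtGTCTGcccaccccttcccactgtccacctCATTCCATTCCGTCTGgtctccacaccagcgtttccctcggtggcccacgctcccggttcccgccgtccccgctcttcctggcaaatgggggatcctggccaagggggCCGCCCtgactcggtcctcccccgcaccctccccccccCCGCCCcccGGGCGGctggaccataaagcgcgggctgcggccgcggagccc
The *Thbs4* window was the richest in G and C, at 70.8%, against 58.8% for *Thbs3*, 46.8% for *Thbs2* and a median of 52.4% over 32851 promoters of that length. It held 3 GC boxes and 2 matches each to the SMAD element and the TEAD element, the TEAD matches overlapping each other. *Thbs2* had 1 match to the letters of the TATA box, on the opposite strand with its first base at -126 from the start. It also had 2 SMAD elements, and *Thbs3* had 1 GC box. Of all these promoters 12.4% held the TATA box, 32.7% the GC box, 42.2% the SMAD element, 12.6% the TEAD element and 6.75% the AP-1 element. The E-box, with 1 match in each of the 3 windows, was in 66.2% of promoters, the CCAAT box, with 2 in *Thbs2* and 1 in *Thbs3*, in 33.8%, and the SOX element, with 1 in *Thbs3*, in 16.5%. The GATA-factor element was in 9.99% and the SMAD palindrome in 0.167%. The shared SMAD element, present in *Thbs2* and *Thbs4*, is thus found in many promoters, and a match is not a binding site.

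*Comp* was the most abundant pentameric member *in vivo* and was close to absent in culture. Its FPKM *in vivo* was 146 and 195 at 1 week and 1036 and 1071 at 2 weeks, from 5067 to 35096 fragments. In culture its FPKM was 0.197 and 0.181 at 1 week and 0.658 and 0.570 at 2 weeks, from 9, 8, 27 and 23 fragments. The *in vivo* libraries thus lay above all *in vitro* libraries, and within each setting the 2-week libraries lay above the 1-week libraries. The mean was 904 times as high *in vivo* at 1 week (95% interval from counting error alone 568 to 1562) and 1716 times at 2 weeks (1300 to 2310). Among all genes of a library ordered by FPKM, *Comp* stood at ranks 284 and 204 *in vivo* at 1 week and at ranks 34 and 32 at 2 weeks, and at rank 13423 or below in culture.

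*Thbs4* had the same order of groups at lower levels. Its FPKM *in vivo* was 108 and 137 at 1 week and 267 and 282 at 2 weeks. In culture 1 fragment and 0 fragments were counted at 1 week (FPKM 0.0198 and 0, where a count of 0 allows up to 3 fragments or an FPKM of 0.0611), and 20 and 13 fragments at 2 weeks (FPKM 0.440 and 0.291). All *in vivo* values lay above all *in vitro* values. With 10040 fragments against 1, the ratio at 1 week was 12311, with a counting interval of 2209 to 486303, so its size is poorly known. At 2 weeks the mean was 752 times as high *in vivo* (534 to 1090).

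*Thbs3*, whose protein is made in many tissues and skeletal elements, was less abundant and changed little between the weeks. Its FPKM *in vivo* was 38.7 and 39.2 at 1 week and 51.7 and 49.1 at 2 weeks. In culture it was 1.28 and 1.07 at 1 week and 1.56 and 1.19 at 2 weeks. Values of the settings did not overlap, while the weeks overlapped in culture. The mean was 33.2 times as high *in vivo* at 1 week (counting interval 28.4 to 38.8) and 36.7 times at 2 weeks (31.6 to 42.7).

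*Thbs1*, the member best known as an activator of latent TGF-β, was abundant in every library. Its FPKM *in vivo* was 558 and 569 at 1 week and 461 and 399 at 2 weeks. In culture it was 249 and 261 at 1 week and 345 and 344 at 2 weeks. *In vivo* values were the higher ones at both weeks, but the settings moved toward each other, and the ratio of means was 2.21 at 1 week and 1.25 at 2 weeks. At 2 weeks the direction rested on the scaling between libraries. The log2 difference was 0.32 on the deposited FPKM, -0.01 without the scaling and -0.13 after quantile normalization.

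*Thbs2*, an inhibitor of angiogenesis and a regulator of collagen assembly, had an FPKM *in vivo* of 203 and 205 at 1 week, followed by 195 and 176 at 2 weeks. In culture it was 102 and 98.3 at 1 week and 82.4 and 80.5 at 2 weeks. All *in vivo* libraries lay above all *in vitro* libraries, by 2.04 times at 1 week and 2.28 times at 2 weeks. Without the scaling its log2 differences of 1.03 and 1.18 became 0.69 and 0.85, with the same direction.

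**Figure D1:**
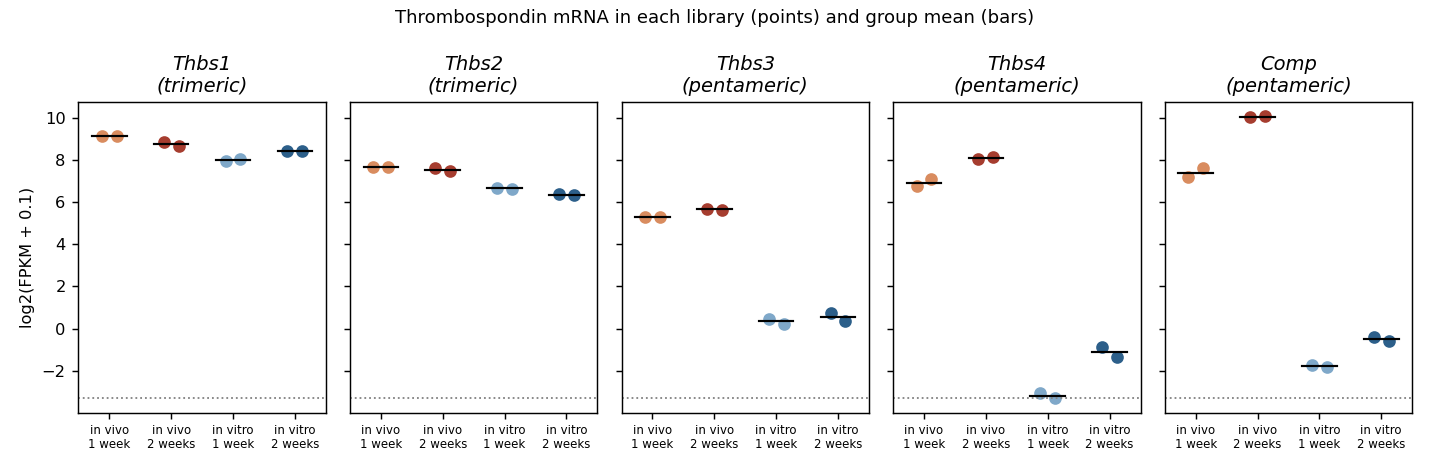
Level of each family member in the 8 libraries as log2(FPKM + 0.1), with points for the 2 libraries of a group, a bar for their mean and a dotted line where a gene with no fragment falls. The pentameric members *Thbs3*, *Thbs4* and *Comp* drop by several log2 units from *in vivo* to *in vitro*, and the trimeric members *Thbs1* and *Thbs2* by little.

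The log2 differences between the settings, on log2(FPKM + 0.1), were thus 1.15 for *Thbs1*, 1.03 for *Thbs2*, 4.94 for *Thbs3*, 10.12 for *Thbs4* and 9.19 for *Comp* at 1 week. At 2 weeks they were 0.32, 1.18, 5.11, 9.22 and 10.53 in the same order. The values of *Thbs4* and *Comp* depend on the pseudocount, since both were near 0 in culture. A gene was called in limma where its log2 fold change exceeded 1 in size and its Benjamini-Hochberg p was under 0.01. Past these limits lay 5 of 5 members at 1 week, where 7.79% of the 15708 tested genes were called higher *in vivo*, and 4 of 5 at 2 weeks, where 9.02% were. Without the scaling between libraries, and likewise with quantile normalization, 3 of 5 remained at each week, the pentameric members. *Thbs1* was then at 0.80 and 0.58 at 1 week, and *Thbs2* at 0.69 and 0.73 at 1 week and at 0.85 and 0.98 at 2 weeks, all under the limit on size. Since the members were chosen on this contrast, nothing is read from these counts. Without the scaling the median log2 difference of all tested genes was -0.34 at 1 week and -0.32 at 2 weeks, and 36.8% and 33.1% of the called genes were higher *in vivo* in place of 60.6% and 52.8%.

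The make-up of the family differed between the groups. Pentameric members made 27.8% and 32.4% of the family's summed FPKM *in vivo* at 1 week and 67.4% and 70.9% at 2 weeks. In culture they made 0.425% and 0.347% at 1 week and 0.618% and 0.481% at 2 weeks. As a whole, the family was therefore mostly trimeric in culture and in the transplanted cells at 1 week, and mostly pentameric in the transplanted cells at 2 weeks. *Comp* alone made 51.5% and 54.2% of the family's FPKM *in vivo* at 2 weeks, where *Thbs1* made 22.9% and 20.2%. In culture *Thbs1* made 70.7% to 80.6%. Counted as fragments, which weigh long transcripts more, the pentameric share was 18.4% ± 2.19 (SD, n = 2) *in vivo* at 1 week and 52.3% ± 2.87 (SD, n = 2) at 2 weeks.

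The family as a whole also gained *in vivo*, through its pentameric part. Pentameric FPKM summed to 293 and 372 *in vivo* at 1 week and to 1355 and 1402 at 2 weeks, while trimeric FPKM summed to 761 and 775 and then to 656 and 575. In culture the pentameric sum was 1.5 and 1.25 at 1 week and 2.66 and 2.05 at 2 weeks, and the trimeric sum 351 and 359, then 427 and 424. The 5 genes took 0.529% and 0.548% of all fragments on genes *in vivo* at 1 week, and 0.722% and 0.718% at 2 weeks. In culture they took 0.257% to 0.301%. Pentameric and trimeric sums hence moved in opposite directions between the weeks *in vivo* and upward together in culture, as values that were not tested. The trimeric rise in culture was that of *Thbs1* alone, whose mean FPKM went from 255 to 344. The mean of *Thbs2* fell there from 100 to 81.4.

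**Figure D2:**
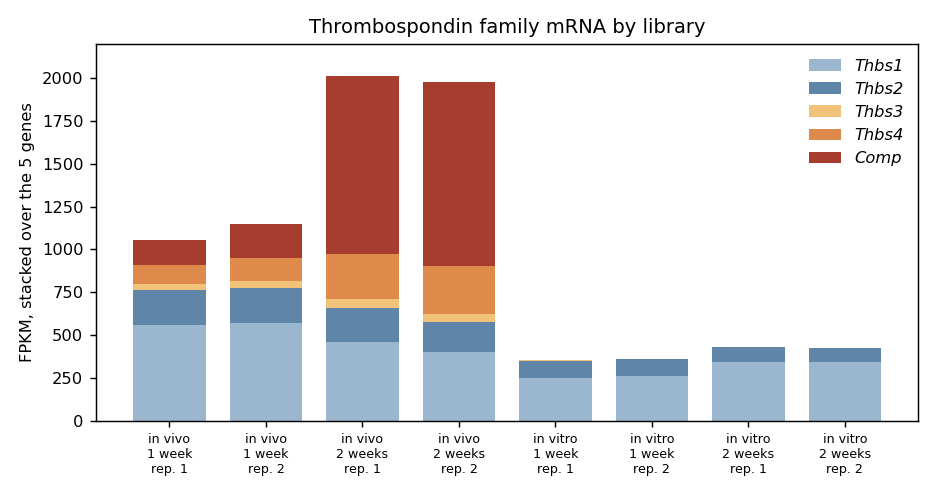
FPKM of the 5 family members stacked for each of the 8 libraries, on a linear axis from 0. The pentameric part (*Thbs3*, *Thbs4* and *Comp*) reaches 1355 and 1402 FPKM *in vivo* at 2 weeks and is at most 2.66 FPKM in culture.

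The change from 1 to 2 weeks asks how the members moved as the transplanted or cultured cells aged. In transplanted cells *Comp* rose and *Thbs4* rose, 2 of 5 members, where 1.23% of all tested genes were called higher at 2 weeks. Nothing is read from this count, since the values of both weeks entered the choice of the members. The log2 fold change of *Comp* was 2.64 (standard error 0.14, adjusted p = 5.0e-04 by limma, Benjamini-Hochberg), a 6.18-fold higher mean. It stood at rank 101 of 15708 genes by log2 fold change, and its gain in mean FPKM, 883, stood at rank 5 of 54532 genes. The log2 fold change of *Thbs4* was 1.17 (standard error 0.19, adjusted p = 0.0095 again by limma), a 2.24-fold higher mean, and in all 4 libraries the order of the weeks was the same. This call was at the edge of the threshold. It was lost in 15 of 19 alternatives, and without each library in turn the limma adjusted p (Benjamini-Hochberg) was 0.010 to 0.075 and the log2 fold change 1.00 to 1.34, the lowest without the first *in vivo* library at 1 week. For *Comp* the log2 fold change was 2.43 to 2.85 without each library in turn. Its call was lost in 1 of 19 alternatives, the fit of the 4 *in vivo* libraries alone (adjusted p = 0.033 by limma, Benjamini-Hochberg). That fit called 0 genes.

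Markers of other cell types also moved between the weeks, and their part in the week changes of the members was not tested. *In vivo* 4 of 8 mesothelial markers rose, with a median log2 fold change of 0.95 and a summed FPKM of 18.5 to 19.8 at 1 week and 37.3 to 37.6 at 2 weeks. Of the cardiomyocyte and the mural markers 1 of 10 each was called higher *in vivo*, and of the fibroblast, macrophage, endothelial and platelet markers none was. In culture 2.76% of all tested genes were called higher at 2 weeks, and the calls took in 6 of 10 cardiomyocyte markers (summed FPKM 166 to 188, then 1034 to 1228), 5 of 8 mesothelial (259 to 270, then 576 to 586), 6 of 10 endothelial (24.4 to 25.8, then 54.3 to 63.4) and 5 of 10 mural markers (225 to 245, then 283 to 302).

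In cultured cells *Thbs4* and *Comp* lay past the same limits, but nothing is read from these calls. *Thbs4* was under the filter of 0.5 FPKM in all 4 *in vitro* libraries and was tested because of its *in vivo* level, and *Comp* reached 0.5 FPKM in culture in the 2-week libraries alone. The log2 fold change was 2.07 for *Thbs4* (adjusted p = 8.4e-04 by limma, Benjamini-Hochberg) and 1.30 for *Comp* (adjusted p = 0.0014 again by limma). These sizes depend on the pseudocount, at 0.43 and 0.44 with a pseudocount of 1, where neither was called (adjusted p = 0.035 and 0.042 by limma), and 4.41 and 1.65 with one of 0.01. They rested on few fragments, 33 against 1 for *Thbs4* and 50 against 17 for *Comp*. The ratio of *Thbs4* was 36.5 with a counting interval of 6.11 to 1484, and that of *Comp* 3.25 with an interval of 1.84 to 6.01. With voom on the recovered fragments neither was called (adjusted p = 0.017 and 0.13 by limma, Benjamini-Hochberg, within ranges over the alternatives of 5.7e-04 to 0.035 for *Thbs4* and 9.6e-04 to 0.13 for *Comp*). Without any 1 of the 4 *in vitro* libraries *Comp* was not called, with an adjusted p of 0.011 to 0.016 in these limma fits, and *Thbs4* was not called without the second *in vitro* library at 1 week, with an adjusted p of 0.0103 in limma.

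The other members did not pass the thresholds between the weeks. *Thbs1* had a log2 fold change of -0.39 *in vivo* (adjusted p = 0.022 by limma, Benjamini-Hochberg) and 0.43 in culture (adjusted p = 0.011 by limma). With quantile normalization its change in culture was 0.07 (adjusted p = 0.62 by limma). *Thbs2* had -0.14 *in vivo* and -0.30 in culture (adjusted p = 0.19 and 0.019 again by limma). *Thbs3* had 0.37 *in vivo* and 0.20 in culture (adjusted p = 0.11 and 0.32 again by limma).

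**Figure D3:**
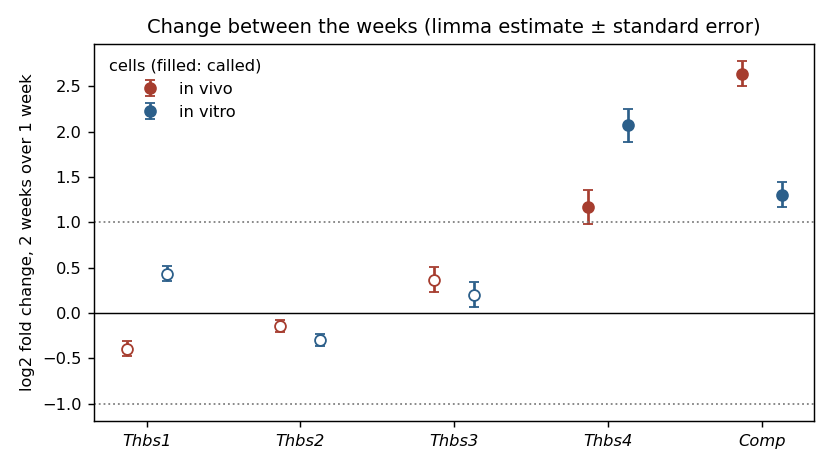
Log2 fold change from 1 to 2 weeks of the 5 members *in vivo* and *in vitro*, as limma estimates with standard errors as bars, filled where called and with dotted lines at an absolute value of 1. *Comp* and *Thbs4* are filled in both settings, with 2.64 for *Comp* *in vivo*, but rest on 50 fragments or fewer at each week *in vitro*, and *Thbs1* lies on opposite sides of 0.

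Whether the change between the weeks differed between the settings was tested as the *in vivo* change minus the *in vitro* change. No member was called, where 1.73% of all tested genes were called in either direction. *Comp* came closest, with a difference of 1.34 on the log2 scale (standard error 0.19, adjusted p = 0.0101 by limma, Benjamini-Hochberg, 0.0024 to 0.44 over the alternatives). Its *in vitro* part rested on 50 against 17 fragments. The size of the difference depended on the pseudocount, at 0.99 with one of 0.01 and 2.19 with one of 1, where it was called. *Thbs1* had a difference of -0.83 (standard error 0.12, adjusted p = 0.0090 again by limma). It passed the limit on p and not the limit on size. For *Thbs4* the difference was -0.90 (adjusted p = 0.080 by limma), and with a pseudocount of 1 it became 0.73, so its direction is set by how values near 0 are treated. Its *in vitro* part rested on 33 against 1 fragments, under the filter of 0.5 FPKM in every *in vitro* library. Nothing is read from this test of *Thbs4*. *Thbs2* and *Thbs3* had differences of 0.16 and 0.17 (adjusted p = 0.33 and 0.63 by limma, Benjamini-Hochberg).

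The profiles of the members over the 8 libraries were compared with those of 8049 genes by the root mean square difference of centred log2 values, with no test. The gene closest to *Comp* was *Thbs4*, at 0.600 log2 units, and *Thbs4* was likewise closest to *Comp*. Both genes had few fragments in culture, where log2 values depend on the pseudocount, and both were chosen for their difference between the settings. Next to *Comp* came *C1qtnf3*, a secreted C1q and TNF related protein, at 0.942, the complement gene *C4b* at 1.09, the fibroblast gene *Pi16* at 1.17 and *Prg4*, which encodes the joint lubricant lubricin, at 1.58. *Thbs4* shared *C1qtnf3*, *C4b* and *Pi16* with *Comp* among its closest 5 genes, with *Meox1*, a homeobox gene of activated fibroblasts, as the remaining one at 1.36. *Pi16* had a mean FPKM of 83.7 and then 398 *in vivo*, against 0.661 and then 1.09 in culture.

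*Thbs3* stood apart from the other pentameric members, at 2.43 from *Thbs4* and 2.58 from *Comp*. Its closest genes were *Itih5* at 0.207, *Gfra1* at 0.214, the cartilage matrix gene *Matn4* at 0.239, *Tppp3* at 0.255 and *Ace*, which encodes the angiotensin-converting enzyme, at 0.256. *Thbs1* and *Thbs2* were 0.334 apart. Closest to *Thbs1* were *Pfkfb3*, a regulator of glycolysis, at 0.0745, *Cxcl16*, *Mcam*, *Aoc3* and *Gramd1a*. Closest to *Thbs2* were *Tram2*, which takes part in collagen synthesis, at 0.0625, the laminin gene *Lama4*, *Lpgat1*, the collagen-modifying enzyme gene *P3h1* and *Cdk14*. Small differences are common for genes with a narrow range, so these distances compare within a member and not between members.

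Genes that work with thrombospondins were counted in 8 lists, and 106 of their genes were tested. The lists were chosen with earlier results of these data known, so their counts between the settings are a description. Beside them, 7 of the 10 fibroblast markers were called higher *in vivo* at each week. At 1 week 46 of the 106 were called higher *in vivo* and 4 lower. At 2 weeks the calls were 49 higher and 7 lower. The shares of all tested genes called lower were 5.07% at 1 week and 8.05% at 2 weeks, beside the shares called higher given above. The median log2 fold change over all tested genes was -0.0058 at 1 week and -0.0034 at 2 weeks. Counts below are from limma with the same thresholds.

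Of 17 tested receptors for thrombospondins, 1 was higher and 2 were lower at 1 week, against 2 higher with 3 lower at 2 weeks, with a median log2 fold change of 0.08 and 0.11. *Cd36*, the scavenger receptor that binds type 1 repeats, was not called, at -0.94 and -0.97, and *Cd47*, the integrin-associated receptor, was not called, at 0.30 and 0.38. *Vldlr*, a lipoprotein receptor that binds *Thbs1* protein, was lower *in vivo* at -2.07 and -1.57. The integrin subunit gene *Itga3* was lower at -1.86 and -2.43, and the syndecan gene *Sdc4* at -2.06 at 2 weeks. Most of the tested receptors were thus not called at either week, and the calls went in both directions. The list had 0 higher and 4 lower at 1 week without the scaling between libraries.

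The matrix partners of COMP and other thrombospondins, mostly collagens and matrilins, were mostly higher *in vivo*. The calls were 9 of 11 tested genes at 1 week and 11 of 11 at 2 weeks, with none lower. Their median log2 fold change was 2.36 and 3.0. *Acan*, which encodes the cartilage proteoglycan aggrecan, was higher at 6.02 and 5.25, the collagen IX gene *Col9a2* at 5.72 and 5.50, and the matrilin gene *Matn4* at 5.0 and 5.41. Between the weeks none was called *in vivo* and 4 were lower in culture, the collagen genes *Col1a1*, *Col12a1* and *Col14a1* and the fibronectin gene *Fn1*, named after their values were seen, where 1.05% of all tested genes were called lower in culture. The partners' summed FPKM was 7600 to 8516 *in vivo* at 1 week and 5245 to 6216 at 2 weeks, when *Comp* was higher.

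The tendon and cartilage genes showed a like pattern, with 10 of 14 tested higher *in vivo* at 1 week and 11 of 14 at 2 weeks, none lower, and a median of 2.99 and 3.85. *Scx*, the tendon transcription factor scleraxis, was higher at 5.04 and 4.50. *Prg4* was higher at 6.74 and 7.36, the cartilage intermediate layer protein gene *Cilp* at 6.86 and 6.39, and the tenomodulin gene *Tnmd* at 3.96 and 6.29. Between the weeks *in vivo* 3 genes of this list rose, *Fmod* at 1.52, *Cilp* at 1.27 and *Cilp2* at 3.77, and in culture *Scx*, *Cilp* and *Cilp2* rose at 1.57, 1.73 and 1.2, named after their values were seen. The partner list and this list share *Acan* and *Col2a1*.

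Of 8 tested proteases that cut thrombospondins or their matrix, 3 were higher *in vivo* with 1 lower at 1 week, against 1 higher with 2 lower at 2 weeks (median 0.50 and -0.34). *Mmp2*, a gelatinase, was higher at 1.65 and 1.65, the collagenase gene *Mmp13* lower at -1.88 and -3.52, and *Adamts12*, whose protein cleaves COMP, higher at 1.51 at 1 week and not called at 0.48 at 2 weeks. Between the weeks *in vivo* *Adamts12* fell by 1.43 and *Mmp14* by 1.00 on the log2 scale, where 0.949% of all tested genes were called lower. The change between the weeks differed between the settings for *Adamts4* (-1.68), *Adamts7* (-1.11) and *Mmp14* (-1.06), named after their values were seen. Each adjusted p was under the threshold in limma. These were 3 of 8 genes, where 1.73% of all tested genes were called in either direction. Without the scaling between libraries 4 were called, and with quantile normalization 2. Calls of this kind varied with the method, from 271 over all genes to 27 with the replicate block and 473 with voom. ADAMTS7 also cleaves COMP.

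Of 13 tested TGF-β ligand, latency and receptor genes, 5 were higher with 1 lower at 1 week, against 6 with 1 at 2 weeks, with a median of 0.74 and 0.46. The latent TGF-β binding protein genes led, with *Ltbp2* at 3.90 and 4.07, *Ltbp1* at 3.04 and 3.0 and *Ltbp4* at 2.69 and 2.90. *Tgfb1* itself was not called, at -0.16 and -0.39. Of 13 tested TGF-β targets 10 were higher at 1 week and 7 at 2 weeks, none lower, with a median of 1.61 and 1.18. Without the scaling between libraries 8 were higher at 1 week, and 6 were higher with 1 lower at 2 weeks. With quantile normalization these were 10 at 1 week, and 7 with 1 lower at 2 weeks. *Postn* was higher at 3.46 and 3.56, *Ctgf* at 3.16 and 2.60 and *Tgfbi* at 2.70 and 2.90. Whether the *in vitro* libraries were grown with a TGF-β receptor inhibitor is not stated, and its part in these differences and in those of the members was not tested. *Postn* is also a fibroblast marker, and 7 of the 10 fibroblast markers were higher *in vivo* at each week.

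Of 16 other matricellular genes 8 were higher with 0 lower at 1 week, against 10 with 1 at 2 weeks, with a median of 1.09 and 1.89. Without the scaling between libraries 7 were higher with 1 lower at 1 week, against 9 with 1 at 2 weeks. The tenascin gene *Tnn* was higher at 4.83 and 3.88, and *Postn* and the CCN family gene *Ctgf*, listed here too, came next with the values above. Of 19 genes for ATF6 and the ER chaperones, which THBS4 is known to act on, 4 were higher at 1 week and 6 at 2 weeks and none lower (median 0.68 and 0.75). *Creld2* was higher at 1.63 and 1.90, the protein disulfide isomerase gene *Pdia6* at 1.15 and 1.55 and *Manf* at 1.17 and 1.35. *Atf6* was not called, at -0.35 and -0.24. Without the scaling between libraries only 1 and 3 of the 19 were called higher, and none of them was called between the weeks in either setting.

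**Figure D4:**
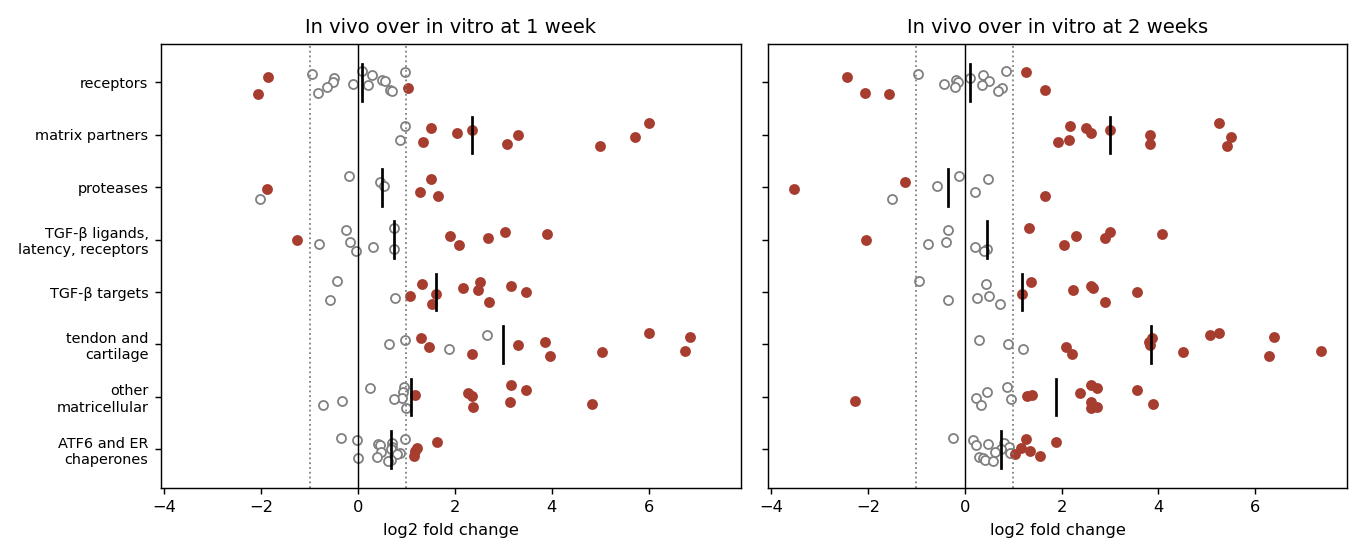
Log2 fold change of each tested gene of the 8 lists, *in vivo* over *in vitro*, at 1 week and 2 weeks, with called genes filled, a bar at the list median and dotted lines at an absolute value of 1. Matrix partners and tendon and cartilage genes lie mostly to the right of 1, and the receptors are spread around 0 with medians of 0.08 and 0.11.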

How the data were processed

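RNA of eGFP+ cells was made into SMARTER mRNA libraries and sequenced and mapped by a provider for the authors. The deposited values are FPKM per gene made by the authors. The submitters' processing notes name CASAVA, HISAT2 2.0.5 and mm10, and the counting tool and annotation are not given in the sources used here. All 8 sample columns were used, and 0 columns were left over. The product of FPKM and gene length came in whole multiples of 1 step for 100% of values above 0 (tolerance 0.01), so fragments could be recovered. The library size behind the FPKM was 0.863 to 0.915 times the counted fragments *in vivo*, against 1.09 to 1.15 times *in vitro*, so the FPKM include a scaling between libraries. Replicates differed by more than counting error (chi-square 4.50 to 9.93 per gene in the 4 groups). Of 54409 gene identifiers shared with GENCODE vM21, 98.3% had the same start and end.

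log2(FPKM + 0.1) was compared with limma 3.58.1 in R 4.3.3 (4 groups, variance trend) for genes that reached an FPKM of 0.5 in 2 or more libraries. Fold changes on this scale understate the change of low genes. DESeq2, the authors' test, takes counts and was not run here. Calls needed a log2 fold change above 1 in size and a p under 0.01 after Benjamini-Hochberg adjustment over all tested genes. The fit was tested on simulated data.

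The members and lists were chosen with earlier results of these data known. Named are the members, of each list up to 3 called genes with the largest change at either week, *Cd36*, *Cd47*, *Tgfb1* and *Scx*, and for each member the 5 closest protein-coding genes that reached a mean FPKM of 5 in some group. Alternatives were other pseudocounts, filters, scalings and thresholds, voom, no variance trend, 4 libraries alone, the replicate block and each library left out. Intervals cover counting error only (exact, 95%), as PCR copies are not separate molecules. Tables and figures used Python 3.11.15, pandas 2.3.3, scipy 1.17.1 and matplotlib 3.10.9.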

Additional observations from a re-analysis of the deposited data

Results flagged for a closer look

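*Thbs1* was marked because its change between the weeks differed between the settings. The *in vivo* change minus the *in vitro* change was -0.83 on the log2 scale (standard error 0.12, adjusted p = 0.0090 by limma, Benjamini-Hochberg over all tested genes). On the deposited FPKM both *in vivo* libraries at 2 weeks lay below both at 1 week, and both *in vitro* libraries at 2 weeks lay above both at 1 week. The rise in culture was 0.43 in the main fit and 0.38 without the scaling between libraries, but it shrank with quantile normalization. With quantile normalization the week change of *Thbs1* was 0.07 *in vitro* and -0.63 *in vivo*, and the difference was -0.70. The difference is under the limit on size used for calls. Without each library in turn it was -0.93 to -0.72, with an adjusted p again by limma of 0.013 to 0.047, so the limit on p was passed with all 8 libraries and not without any 1 of them. Over all alternatives the adjusted p was 2.8e-04 to 0.047. With 2 libraries in a group no search for outlying libraries was made.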

How the results depend on the processing

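The numbers of called genes were 342, 599 and 271 for the week change *in vivo*, *in vitro* and their difference, and 2020 and 2682 between the settings at 1 and 2 weeks. With 4 libraries alone limma called 0 genes between the weeks *in vivo* and 0 *in vitro* (4198 and 5992 at an unadjusted p under 0.05), whereas voom, run on all 8 libraries only, called 505 and 863. An adjusted p under 0.05 gave 727, 1003 and 677. For the difference voom gave 473, no filter 72 and no variance trend 71. The replicate block gave 27 for it, and *Thbs4* was no longer called *in vivo* (adjusted p = 0.020 in limma), the only member call it changed. The replicate numbers were not taken as pairs, since their correlations were -0.048 to -0.011. Without each library in turn the counts were 11 to 221 *in vivo*, the lowest without the first *in vivo* library at 1 week, 198 to 555 *in vitro*, 2 to 86 for the difference, and 1448 to 2044 and 2011 to 2548 between the settings. The list genes called were 46 to 51 and 54 to 58, against 50 and 56. As fragments, the pentameric share was 18.4% and 52.3% *in vivo* at 1 and 2 weeks and 0.278% and 0.361% *in vitro*, in place of 30.1%, 69.1%, 0.386% and 0.549%. Without each library it was 27.8% to 32.4%, 67.4% to 70.9%, 0.347% to 0.425% and 0.481% to 0.618%. Reversed were *Thbs1* between the settings at 2 weeks (-0.014 without the scaling, -0.13 with quantile normalization), the week difference of *Thbs4* with a pseudocount of 1 (0.73), and that of *Thbs3* without the second *in vitro* library at 2 weeks (-0.015, within -0.015 to 0.35 without each library). Where not given by construction, the cause was not tested. Of the other values of single members, 399 stayed the same. For a week change this means called or not called as in the main fit. For a difference between the settings it means a move of less than 1 standard error of the limma estimate. Of the week changes 27 lost and 3 gained a call, and 37 differences between the settings moved by 1 standard error or more. Of these 37, 6 fell under the limit on size, all of them *Thbs1* or *Thbs2* without the scaling or with quantile normalization. *Thbs4* and *Comp* in culture are limited by depth.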
